A study of Mus musculus with 32 samples.

Results

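The data describe 10 homeobox genes of the Hoxa and Hoxb clusters in stem and progenitor cells of mouse bone marrow. They were taken by symbol from a table of raw read counts of 24421 genes, and all 10 were in it: Hoxa3, Hoxa5, Hoxa7, Hoxa9, Hoxa10, Hoxb2, Hoxb3, Hoxb4, Hoxb5 and Hoxb8. RNA came from female C57BL/6 mice without a transgene or deletion, aged 10 weeks (young) or 20 months (aged), and no agent was given. The marrow was pooled and sorted into 8 fractions, with 2 libraries for each fraction and age, 32 in all. The labels do not say whether the duplicates came from separate mice, so the p-values measure only the spread between these libraries.

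All fractions were negative for lineage markers. The stem cells (HSC) were Sca-1+ and c-kit+, lacked CD34, CD48 and Flt3 and carried CD150. The multipotent progenitors had the same Sca-1 and c-kit gate and were CD34+: MPP1 carried CD150 but not CD48, MPP2 both, MPP3 CD48 alone, and MPP4 CD48 with Flt3. Granulocyte-macrophage progenitors (GMP) and megakaryocyte-erythrocyte progenitors (MEP) were c-kit+ and Sca-1-, GMP with and MEP without FcgR and CD34. Common lymphoid progenitors (CLP) were sorted as low in Sca-1 and c-kit and positive for what the labels write as IL-7. The fixed marker lists followed these names: the summed level of 5 HSC markers was highest in HSC, that of 5 GMP markers in GMP, of 5 MEP markers in MEP and of 5 CLP markers in CLP, at both ages.

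Hox genes encode transcription factors that bind DNA through a homeodomain. They lie in clusters in which gene order follows the order of their expression along the body axis of the embryo, and genes of one number in different clusters are paralogs. In blood, Hoxa and Hoxb genes are known for high expression in stem and early progenitor cells and for being switched off as cells mature. Hoxa9 is a known regulator of progenitor growth and is often overexpressed in acute leukaemia together with its partner Meis1, and Hoxb4 is known for expanding stem cells when it is forced on. Hox proteins bind many targets together with TALE homeodomain proteins of the Pbx, Meis and Pknox families.

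In the mm10 (GRCm38) build with GENCODE M21 gene models, the Hoxa members lay on the minus strand of chromosome 6. Hoxa3 spanned 52169062 to 52213336, Hoxa5 52201754 to 52204587, Hoxa7 52214491 to 52221854, Hoxa9 52223100 to 52231089 and Hoxa10 52231197 to 52240854. The Hoxb members lay on the plus strand of chromosome 11: Hoxb8 at 96281905 to 96285315, Hoxb5 at 96303336 to 96306121, Hoxb4 at 96318267 to 96321638, Hoxb3 at 96323326 to 96347930 and Hoxb2 at 96350525 to 96354012. All values are over exons. The libraries were made with a DNA library kit from amplified, sonicated cDNA, so the reads do not keep the strand. Antisense genes of the table share exon sequence with 3 members. They cover 28.8% of the Hoxa7 exon bases (Hoxaas3), 22.3% of those of Hoxa3 (Hoxaas2 and Hoxaas3) and 5.28% of those of Hoxb5 (Hoxb5os). Reads from these stretches cannot be told apart between the partners. Genes absent from the count table overlap members too. The antisense Hoxb3os shares 953 of the 1628 Hoxb2 exon bases and 2250 of the 3521 of Hoxb3. With Hoxa3, Gm28308 on the same strand shares 261 bases and the antisense Gm29430 83. Strand cannot separate the antisense ones from the members, and whether reads of any of these genes were counted for the members is not known.

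Hoxa5 and Hoxa9 fell with age over the multipotent progenitors, as did Hoxa3. Hoxa10, the neighbour of Hoxa9, did not pass the threshold with edgeR over all libraries. The DNA just upstream of Hoxa5, Hoxa9 and Hoxa10 is therefore shown. Each is the 250 bases before a start site annotated by RefSeq (GRCm38.p6), 5′ to 3′ on the minus strand, at chr6:52204588-52204837, chr6:52227371-52227620 and chr6:52234940-52235189, the last being the start of Hoxa10 nearer to Hoxa9. The Hoxa9 and Hoxa10 windows lie inside the gene spans given above, whose outermost starts are further upstream. Capitals mark CCAAT or TATAAA on either strand.

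Hoxa5 upstream: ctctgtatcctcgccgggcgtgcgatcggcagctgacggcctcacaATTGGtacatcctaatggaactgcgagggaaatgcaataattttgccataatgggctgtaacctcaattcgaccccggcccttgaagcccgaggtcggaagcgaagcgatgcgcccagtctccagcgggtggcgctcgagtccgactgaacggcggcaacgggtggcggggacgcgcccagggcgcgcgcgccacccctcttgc

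Hoxa9 upstream: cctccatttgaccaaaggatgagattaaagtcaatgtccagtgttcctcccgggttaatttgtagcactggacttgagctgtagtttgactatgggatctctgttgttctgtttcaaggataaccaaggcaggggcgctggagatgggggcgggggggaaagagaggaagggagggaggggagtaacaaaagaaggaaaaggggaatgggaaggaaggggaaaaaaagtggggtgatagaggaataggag

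Hoxa10 upstream: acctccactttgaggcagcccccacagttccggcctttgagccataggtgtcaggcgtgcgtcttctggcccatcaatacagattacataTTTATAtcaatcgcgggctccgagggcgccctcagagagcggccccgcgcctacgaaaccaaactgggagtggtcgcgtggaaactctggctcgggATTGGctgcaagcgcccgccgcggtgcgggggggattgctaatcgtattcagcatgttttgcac

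The Hoxa5 stretch held 28 CpG dinucleotides, that of Hoxa10 20 and that of Hoxa9 3, against a median of 6 over 32851 promoters of the same table. CCAAT, found in 33.8% of those promoters, was present once upstream of Hoxa5 and once upstream of Hoxa10. TATAAA, found in 12.4%, occurred once upstream of Hoxa10. The other annotated start of Hoxa10, with its upstream stretch at chr6:52240855-52241104, had 7 CpG and neither CCAAT nor TATAAA. Neither TGACAG (the letters Meis and Pknox proteins are known to favour, in 15.9% of promoters) nor TGATNNAT (a joint Pbx and Hox pattern, in 7.68%) was in these 4 windows. The window of Hoxa3 (chr6:52213068-52213317), which overlapped an annotated exon and is not printed, held TGACAG once. These are matches of letters and not measured binding. The table held promoters for 7 of the 10 members, and Hoxb2, Hoxb3 and Hoxb5 were not among them.

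Depth was even. Counts summed to 11237384 to 17723245 per library (median 13489609), so that 3 counts stood for 0.169 to 0.267 CPM (counts per 1000000 counts of the library). The 10 genes together held 0.0311% of all counts in the library where they were most abundant (young HSC) and 0.000716% where they were least (young MEP). Hoxb8 had counts in 5 of 32 libraries and did not pass the filter on low counts. The other 9 members were tested among 14154 genes with edgeR's quasi-likelihood test, two-sided, with Benjamini-Hochberg adjustment over all genes tested, and called at an adjusted p under 0.01.

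**Figure D1:**
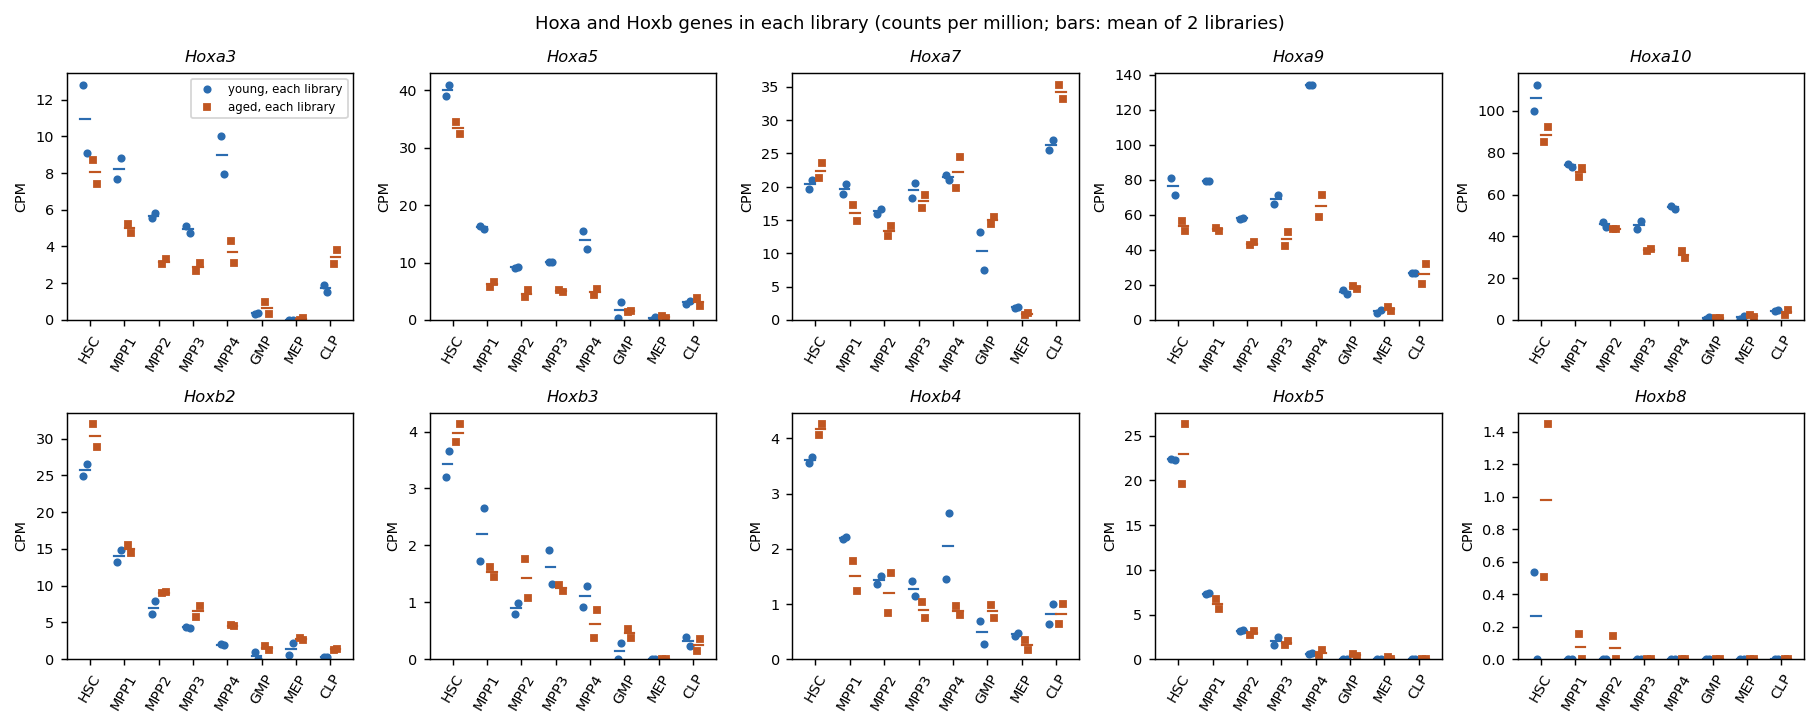
Level of each of the 10 genes (y axis, CPM, linear from 0, scaled per gene) in each fraction (x axis). Circles are young and squares aged libraries, and short lines are means of 2 libraries. Most genes are highest in HSC and near 0 in GMP and MEP; Hoxa9 peaks at 134 CPM in young MPP4 and Hoxa7 is highest in CLP.

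Levels between genes were compared per kilobase of exon. In young HSC, Hoxa10 stood at 33.8 CPM per kb, Hoxa9 at 23.6, Hoxa5 at 21.3, Hoxb2 at 15.8, Hoxb5 at 11.8 and Hoxa7 at 10.1. Hoxa3 (4.22), Hoxb4 (1.41), Hoxb3 (0.974) and Hoxb8 (0.101) were lower. The leading gene changed along the tree: in young MPP4 it was Hoxa9 at 41.6 CPM per kb, with Hoxa10 at 17.2, and in young CLP it was Hoxa7 at 13.1 with Hoxa9 at 8.28. Part of the order depended on the exon model. Per kilobase of the exons of all annotated transcripts, young HSC had Hoxa5 (21.3) above Hoxa9 (13.7) and Hoxb5 (8.02) above Hoxb2 (7.38). The leading genes stayed Hoxa10 in young HSC (32.5), Hoxa9 in young MPP4 (24.1) and Hoxa7 in young CLP (9.13).

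Summed over its 5 members, the Hoxa cluster stood at 254 ± 1.61 CPM in young HSC, 233 ± 5.29 in young MPP4, 62.2 ± 1.43 in young CLP, 29.4 ± 2.97 in young GMP and 8.28 ± 2.97 in young MEP (SD, n = 2 for all means here). The Hoxb cluster stood at 55.4 ± 1.15 CPM in young HSC and 5.76 ± 1.04 in young MPP4, and between 1.12 and 1.83 in the 3 later fractions. The Hoxa sum of young MPP4 rested on Hoxa9, whose mean was 76.2 CPM in young HSC and 134 in young MPP4, while that of Hoxa10 was 106 and 53.9 and that of Hoxa5 40.0 and 13.9. In aged cells the Hoxa sum was 206 ± 0.542 CPM in HSC and 127 ± 9.55 in MPP4, and the Hoxb sum 62.4 ± 3.56 and 6.76 ± 0.544.

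**Figure D2:**
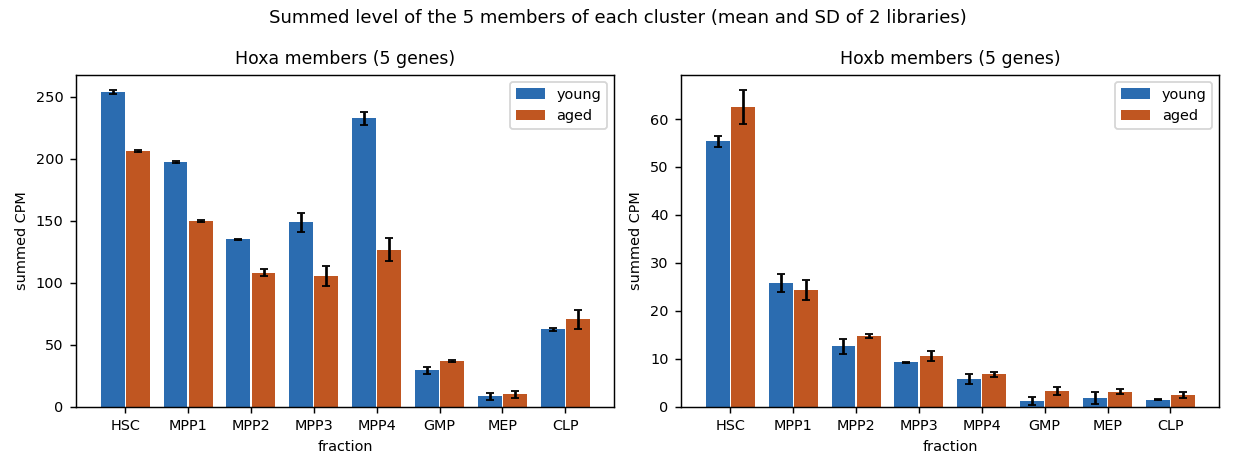
Summed CPM (y axis, linear from 0, with a different scale in each panel) of the 5 Hoxa members (left) and the 5 Hoxb members (right) by fraction (x axis). Bars are means of 2 libraries, with SD. The young Hoxa sum is 254 in HSC and 233 in MPP4, and the young Hoxb sum 55.4 and 5.76.

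The first comparison followed the genes from stem cell to progenitor, in 7 steps at each age: HSC to MPP1, MPP1 to each of MPP2, MPP3 and MPP4, MPP3 to GMP, MPP2 to MEP and MPP4 to CLP. In young cells 25 of 63 pairs of gene and step were called lower and 1 higher, and in aged cells 26 lower and 1 higher. Over all genes 14.7% of pairs were lower and 14.4% higher in young cells, and 14.8% and 13.9% in aged cells. Losses were concentrated at the last steps, as were those of all genes. Into MEP, 8 of 9 members fell in young and 9 of 9 in aged cells, where 36.7% and 34.4% of all genes tested fell. Into GMP, 7 fell in young and 5 in aged cells (all genes, 30.0% and 22.2%), and into CLP 6 and 4 (20.5% and 21.6%).

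Within the stem and multipotent cells fewer members were called lower than at the last steps, and so were fewer of all genes. With the spread taken from the HSC and MPP libraries, a fit chosen after seeing the data, 32 pairs at these steps were lower in place of 12. From MPP1 to MPP2 all 9 tested members lay below 0 at both ages, with a median log2 change of -0.65 in young and -0.38 in aged cells. Over all genes tested the median was -0.021 and -0.016. From HSC to MPP1, 1 of 9 fell in young and 3 in aged cells (all genes, 5.67% and 10.5%). From MPP1 to MPP2 none was called at either age (2.02% and 2.40% of all genes called lower); at an unadjusted p under 0.05, 5 young and 2 aged members were lower, and DESeq2 called 3 and 2. From MPP1 to MPP3, 1 fell in young and 2 in aged cells (1.74% and 3.72%), and from MPP1 to MPP4 2 and 3 (6.27% and 9.02%).

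Hoxb5 fell at 6 of 7 steps at each age, the most of any member. In young cells its 2 libraries held 22.4 and 22.3 CPM (HSC), 7.30 and 7.40 (MPP1), 3.13 and 3.25 (MPP2), 1.56 and 2.46 (MPP3) and 0.594 and 0.641 (MPP4). GMP, MEP and CLP had no Hoxb5 count in any young library. The groups did not overlap from one to the next down to MPP4. From HSC to MPP1 the log2 change was -1.63 ± 0.31 (SE; adjusted p = 8.82e-04, edgeR), from MPP1 to MPP3 -1.81 ± 0.35 (0.00217) and from MPP1 to MPP4 -3.49 ± 0.41 (5.79e-06). Against the limit of 3 counts per library, young GMP was at least 11.8-fold below MPP3 and young MEP at least 16.4-fold below MPP2. The aged cells gave -1.92, -1.71 and -2.96 for the same first 3 steps, all called. The young call from HSC to MPP1 was lost without either of 2 libraries (adjusted p up to 0.0152, without young MPP1 replicate 1), and that from MPP1 to MPP3 without any of 3 (up to 0.0515, without young MPP3 replicate 1). The aged call from MPP1 to MPP3 was lost without any of its 4 libraries (0.0111 to 0.0389).

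Hoxb2 declined along the same order. Its young libraries held 24.9 and 26.6 CPM (HSC), 13.2 and 14.8 (MPP1), 6.18 and 7.87 (MPP2), 4.37 and 4.27 (MPP3) and 2.05 and 1.92 (MPP4). No fraction overlapped the next. From MPP1 to MPP4 it fell by 2.75 ± 0.44 on the log2 scale in young cells (adjusted p = 7.99e-05) and by 1.62 ± 0.40 in aged cells (0.00408), where the call was lost without any of the 4 libraries (up to 0.0421, without aged MPP4 replicate 2). Hoxb3 and Hoxb4, the paralogs of groups 3 and 4, stayed at or under 4.27 CPM in every library, and were highest in HSC at both ages. Hoxb4 fell from HSC to aged MPP1 (log2 -1.50 ± 0.42, adjusted p = 0.00763) and gave -0.74 ± 0.41 (0.203) in young cells. The aged Hoxb4 call was lost without any of its 4 libraries (up to 0.107, without aged MPP1 replicate 2). Hoxb8, whose forced expression is known to hold myeloid progenitors in an immature state, had 6 and 0 counts in young HSC, 6 and 21 in aged HSC, 2 and 0 in aged MPP1 and aged MPP2, and 0 in every other library.

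Hoxa9 followed another course. Its young libraries held 81.1 and 71.4 CPM (HSC), 79.5 and 79.5 (MPP1), 57.7 and 58.5 (MPP2), 66.3 and 71.5 (MPP3) and 134 and 134 (MPP4). MPP4 was above all others. Its rise from MPP1 to MPP4, by 0.82 ± 0.15 on the log2 scale (adjusted p = 2.65e-04), was the only young step called higher for a member, where 6.63% of all genes were. The aged value was 0.44 ± 0.15 (0.0317). Hoxa9 then fell into CLP (log2 -2.18 young and -1.23 aged), GMP (-1.71 and -1.01) and MEP (-3.40 and -2.62), all called.

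Among members with a library above 3 counts in the later fraction, Hoxa10 had the largest fitted loss into GMP, MEP and CLP at both ages. It held 43.4 and 47.3 CPM in young MPP3 against 0.460 and 1.18 in young GMP, a log2 change of -5.38 ± 0.33 (adjusted p = 6.56e-12). In MEP it was 5.10 below MPP2 and in CLP 3.44 below MPP4 on the log2 scale, and all 3 losses were called in aged cells too. Hoxa5 and Hoxa3 also fell into all 3 later fractions in young cells, although the Hoxa5 call into CLP was lost without young CLP replicate 1 (adjusted p = 0.0115). Hoxa3 had no count in young MEP, at least 29.2-fold below MPP2. In aged cells Hoxa5 gave -1.49 ± 0.52 into GMP (0.0186) and -0.57 ± 0.46 into CLP (0.325), and Hoxa3 -0.03 ± 0.30 into CLP (0.972). The 2 young GMP libraries disagreed on Hoxa5, with 6 and 54 counts, and in a fit of the 4 libraries compared the young loss into GMP was not called (adjusted p = 0.0552).

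Hoxa7 did not fall into CLP at either age. Young libraries held 21.8 and 21.0 CPM in MPP4 and 25.5 and 27.0 in CLP, and aged libraries 19.9 and 24.5 in MPP4 and 35.3 and 33.3 in CLP. CLP was above MPP4 in both ages without overlap. The log2 change was 0.45 ± 0.17 (adjusted p = 0.0341) in young and 0.71 ± 0.17 (0.00144) in aged cells, the latter the only aged step called higher for a member, beside 18.9% of all genes. That call was lost without aged MPP4 replicate 1 (0.57, 0.0350) or aged CLP replicate 1 (0.64, 0.0183). Into GMP, Hoxa7 gave -0.52 ± 0.18 (0.0149) in young and 0.04 ± 0.18 (0.892) in aged cells, and into MEP it fell by 2.94 and 3.70 on the log2 scale. In bulk samples like these, fewer cells with a transcript and less of it per cell cannot be told apart.

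**Figure D3:**
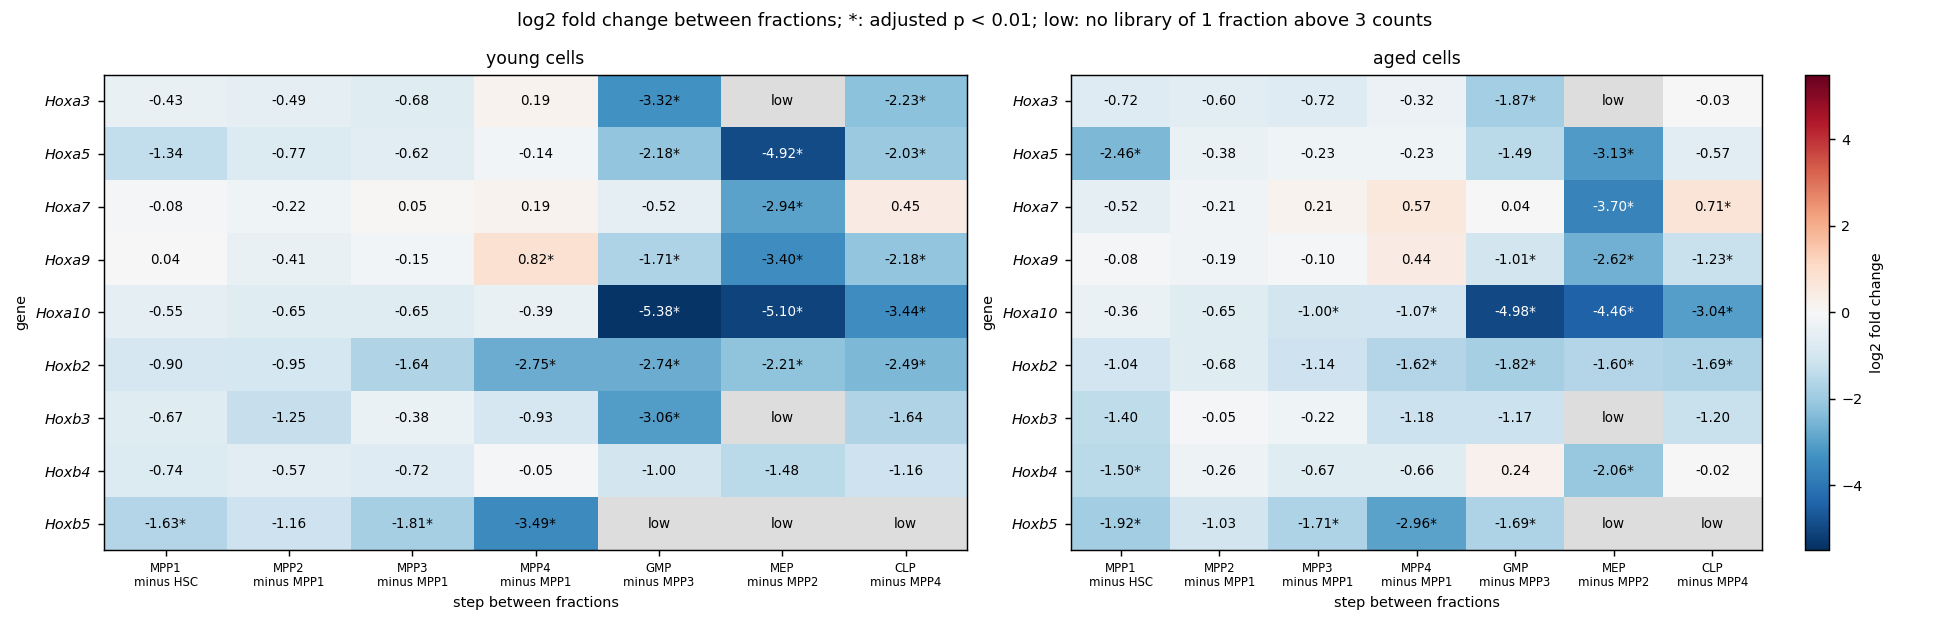
Colours and numbers give the log2 fold change of each tested member (rows) at each step between fractions (columns) in young (left) and aged cells (right), later minus earlier fraction; asterisks mark adjusted p under 0.01, and grey cells marked low (9 of 126) have no library above 3 counts in one of the fractions. The last 3 columns hold most losses, and Hoxa7 into aged CLP and Hoxa9 into young MPP4 are the called rises.

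Across the 16 group means of log2 CPM, the 9 tested members had unequal likeness to each other. As a description over 16 groups that share libraries between genes, Pearson's r was highest, at 0.95, for Hoxb2 with Hoxb5, Hoxa3 with Hoxa5, Hoxa5 with Hoxb4 and Hoxa3 with Hoxa9, and lowest, at 0.22, for Hoxa7 with Hoxb2. Outside the Hox clusters, the 5 genes of 12472 whose pattern was most like the mean of the Hoxa members were Rnf114, Mfng, Sft2d2, 4933412E12Rik and Shisa5 (r from 0.986 to 0.988), and for the Hoxb members Il27, Acy3, 4930556M19Rik, Hint2 and A930005H10Rik (0.979 to 0.983).

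The second comparison set aged against young cells of the same fraction. Of 72 pairs of member and fraction, 3 were called (4.17%), against 12.6% over all genes and fractions. By fraction, no member was called in HSC, MPP1, MPP2, MPP3, MEP or CLP, where 5.40%, 6.80%, 7.81%, 13.9%, 20.8% and 10.4% of all genes were. At an unadjusted p under 0.05, 1, 3, 3, 3, 2 and 3 members differed in these fractions, and DESeq2 called 0, 2, 0, 2, 0 and 1. In MPP4 2 of 9 were called lower (all genes in either direction, 16.6%), and in GMP 1 higher (18.9%). At an adjusted p under 0.05, 3 pairs were higher and 9 lower. The median log2 difference of the 9 members in MPP4 was -0.73, beside -0.02 over all genes tested.

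Most of the Hoxa values in the multipotent progenitors lay below 0: 19 of 20 pairs of Hoxa member and MPP fraction were negative, the exception being Hoxa7 in MPP4. The median over all genes tested was -0.0019, -0.017, -0.040 and -0.022 in MPP1 to MPP4. These pairs are 5 genes of 1 cluster in fractions that may share a pool, and so are not 20 separate observations. The average of the 4 MPP age differences, which uses 16 libraries, was tested as well. The fit treats these libraries as independent. Fractions sorted from the same pool of marrow may not be, so the p-values can overstate the replication. On it 3 of 9 members were lower and none higher with edgeR (6 differed at an unadjusted p under 0.05, and DESeq2 called 5), where 17.7% of all genes were lower and 36.7% changed in either direction. The median of the members was -0.28, beside -0.04 over all genes. Those 3 were Hoxa3 (log2 -0.85 ± 0.14, adjusted p = 5.64e-05), Hoxa5 (-1.16 ± 0.21, 1.00e-04) and Hoxa9 (-0.61 ± 0.07, 7.97e-07).

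Hoxa5 had the largest of these differences. Young libraries held 16.3 and 15.9 CPM (MPP1), 9.07 and 9.30 (MPP2), 10.1 and 10.1 (MPP3) and 15.5 and 12.4 (MPP4). Aged libraries held 5.78 and 6.60, 4.01 and 5.15, 5.24 and 4.88, and 4.37 and 5.41 in the same fractions. Every aged library was below both young libraries of its fraction. In single fractions the log2 difference was -1.34 ± 0.41 for MPP1 (adjusted p = 0.0356), -0.95 ± 0.43 for MPP2 (0.151), -0.95 ± 0.43 for MPP3 (0.115) and -1.42 ± 0.42 for MPP4 (0.0154). HSC held 39.0 and 40.9 CPM in young and 34.5 and 32.5 in aged mice, a difference of -0.21 ± 0.38 (0.818).

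Hoxa9 was lower in all 4 MPP fractions of aged mice and in HSC. Aged libraries held 56.3 and 50.8 CPM (HSC), 52.4 and 50.9 (MPP1), 42.8 and 44.4 (MPP2), 42.0 and 50.3 (MPP3) and 58.6 and 71.1 (MPP4). None reached the young libraries of its fraction given above. The difference in MPP4 was called (log2 -0.96 ± 0.15, adjusted p = 5.03e-05) and remained called without any one of its 4 libraries, between -0.83 and -1.11. It was -0.46 ± 0.15 (0.0493) for HSC, -0.58 ± 0.15 (0.0119) for MPP1, -0.36 ± 0.15 (0.115) for MPP2 and -0.53 ± 0.15 (0.0133) for MPP3.

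Hoxa3 was called in MPP4, with 10.0 and 7.94 CPM in young and 4.30 and 3.10 in aged libraries (log2 -1.19 ± 0.28, adjusted p = 0.00355). The ages did not overlap in MPP1, MPP2 and MPP3 either, at -0.68, -0.79 and -0.73. The MPP4 call was lost without young replicate 1 (0.0517), aged replicate 1 (0.0102) or aged replicate 2 (0.0693). The antisense Hoxaas3, which shares 76 exon bases with Hoxa3 and 579 with Hoxa7, was also lower on the mean over the MPPs (log2 -1.58 ± 0.39, adjusted p = 0.00240), from 9 to 21 counts per young and 0 to 10 per aged MPP library.

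Hoxa10 and Hoxa7, which flank Hoxa9 in the cluster, gave smaller values. Hoxa10 held 54.7 and 53.2 CPM in young and 32.9 and 29.4 in aged MPP4 (log2 -0.70 ± 0.22, adjusted p = 0.0208), and was at 74.7 and 73.2 against 68.3 and 72.8 in MPP1 (-0.03 ± 0.21, 0.990). On the mean over the MPPs it gave -0.28 ± 0.11 (0.0348), and it was called lower there in 3 of 6 other settings. Hoxa7 gave -0.11 ± 0.09 there (0.351), and single fractions between -0.25 and 0.14.

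No Hoxb member was called on that mean with edgeR over all libraries. Hoxb2 had the largest value, at 0.62 ± 0.21 (adjusted p = 0.0179), and was called higher by DESeq2 (1.16e-04), in a fit of the MPP libraries (1.80e-05) and in one of the HSC and MPP libraries (5.73e-06). Its libraries held 2.05 and 1.92 CPM in young and 4.60 and 4.47 in aged MPP4 (log2 1.27 ± 0.46, 0.0476). The aged libraries were above the young ones there without overlap. Hoxb4 gave -0.58 ± 0.22 (0.0380), Hoxb3 -0.20 ± 0.28 (0.608) and Hoxb5 -0.01 ± 0.22. In HSC, Hoxb5 held 22.4 and 22.3 CPM in young and 19.6 and 26.3 in aged mice, which overlapped (0.09 ± 0.30, 0.925).

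**Figure D4:**
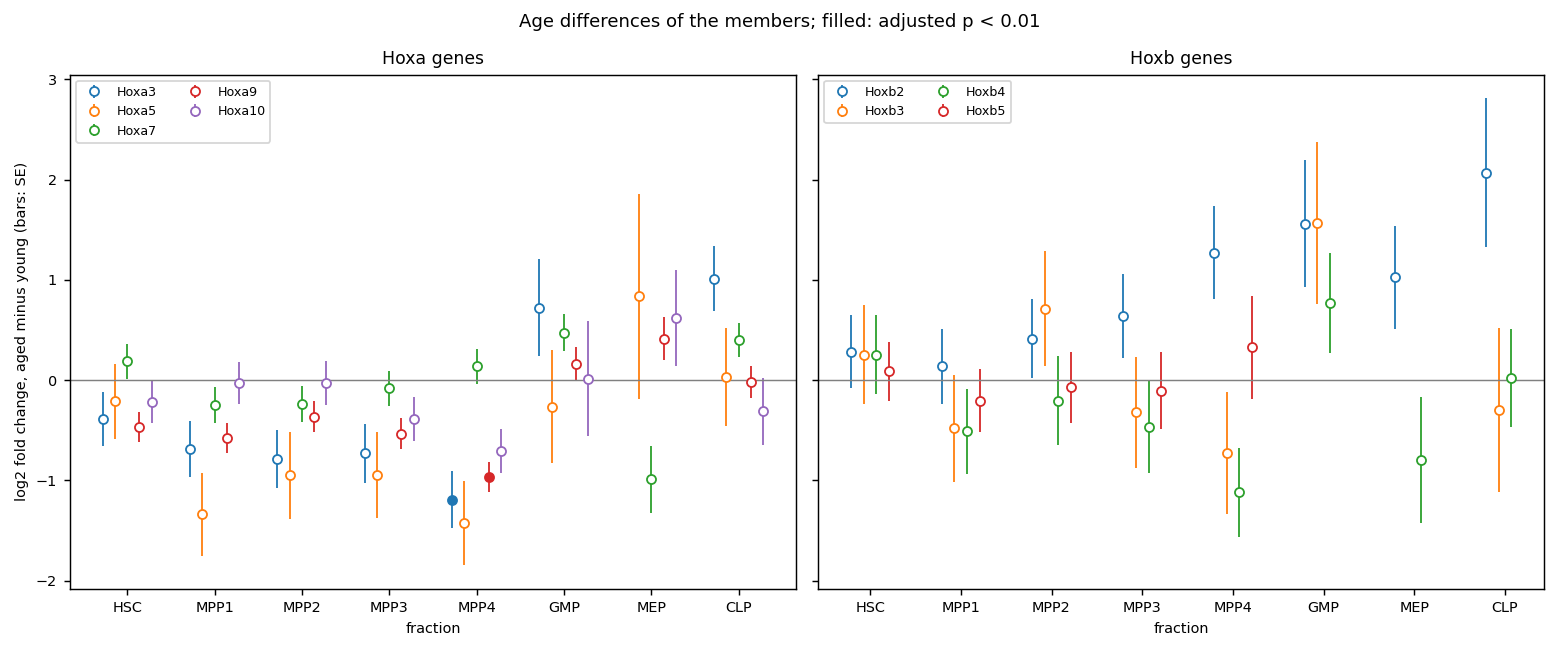
Log2 fold change between aged and young cells (y axis, aged minus young, bars are SE) of the tested Hoxa members (left) and Hoxb members (right) in each fraction (x axis), for the 67 of 72 pairs in which each age had a library above 3 counts. Filled points (Hoxa3 and Hoxa9 in MPP4) passed adjusted p under 0.01, and 19 of the 20 Hoxa points in MPP1 to MPP4 are below 0. In these fractions the median over all genes tested lay between -0.040 and -0.0019.

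With the spread taken from the 20 HSC and MPP libraries, an alternative chosen after seeing the data, 11 age differences were lower and 2 higher in HSC and MPP1 to MPP4, in place of 2 and 0. Lower were Hoxa5 in all 4 MPP fractions, Hoxa9 in HSC, MPP1, MPP3 and MPP4, Hoxa10 in MPP3 and MPP4 and Hoxa3 in MPP4, and higher was Hoxb2 in MPP3 and MPP4. Hoxa3, Hoxa5 and Hoxa9 kept their lower mean over the MPPs in that fit, with DESeq2 and with the MPP libraries alone.

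Other transcripts moved with age in the MPP fractions as well. Mean sums of the 5 HSC markers were 1083, 653 and 827 CPM in young and 889, 575 and 549 in aged MPP1, MPP2 and MPP3. Those of the 5 macrophage markers were 30.5, 125 and 102 against 13.3, 38.8 and 30.04, and of the 5 neutrophil markers 87.6, 722 and 1142 against 94.4, 262 and 210.2. The 5 MEP markers stood at 28.8, 143 and 72.7 against 23.1, 52.8 and 11.5, and the 5 GMP markers at 120.2, 1978 and 3628 against 294, 1461 and 1863. In MPP4 the sum of 5 HSC markers was 709 to 751 CPM in young and 430 to 436 in aged libraries, with Hlf and Procr called lower. That of the CLP markers was 751 to 796 and 1058 to 1102, with Dntt called higher, and the sum of the MPP4 markers Flt3, Cd48 and Cd34 was 2897 to 2972 and 2316 to 2457. Sums of 5 macrophage markers were 44.1 to 48.2 and 9.24 to 10.7, and of 5 basophil and mast cell markers 20.5 to 24.6 and 5.63 to 6.08. The 5 B cell markers summed to 48.4 to 58.0 and 41.2 to 43.4, with Ms4a1 at 0 in both ages and Cd79a at 0 in aged MPP4. In HSC the mean sum of the 5 neutrophil markers was 61.6 CPM in young and 301 in aged cells. That of the 5 T and NK cell markers was 30.5 and 91.2, and that of the 5 HSC markers 1501 and 1454. The part of these shifts in the Hox differences was not tested.

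In the later fractions the one age call with edgeR was Hoxb5 in GMP. It had 0 and 0 counts in young and 7 and 5 in aged libraries, so that aged GMP was at least 2.65-fold higher against the limit of 3 counts per library (adjusted p = 0.00211). The call was lost without either young library or without aged replicate 1 (0.0149 to 0.0172), and in a fit of the 4 GMP libraries alone (0.128). In CLP, Hoxa3 held 1.89 and 1.54 CPM in young and 3.07 and 3.79 in aged libraries without overlap (log2 1.01 ± 0.32, adjusted p = 0.0327). Hoxb2 held 0.315 and 0.308 CPM in young and 1.21 and 1.43 in aged CLP without overlap (log2 2.07 ± 0.75, adjusted p = 0.0576), and 0.978 and 0 in young against 1.82 and 1.19 in aged GMP (1.56 ± 0.63, 0.0678). DESeq2 called Hoxb2 higher in both (adjusted p = 0.00407 in CLP and 0.00436 in GMP). Without young GMP replicate 1 the remaining young GMP library has no Hoxb2 count, and edgeR called the GMP difference too (2.11e-04). Hoxa7 in MEP gave -0.99 ± 0.33 (0.0266). Markers of lymphoid cells differed there as well: the 5 CLP markers summed to 86.9 to 95.7 CPM in young and 0.178 to 0.412 in aged MEP, and the 5 B cell markers to 123 to 131 and 0.412 to 1.16, with Dntt, Rag1, Rag2, Ebf1, Cd79a and Ms4a1 at 0 in aged MEP. The part of these cells in the Hoxa7 value was not tested. Marker sums moved in GMP too. Their means were 223 CPM in young and 86.9 in aged GMP for the 5 neutrophil markers, and 528 and 261 for the 5 basophil and mast cell markers. Those of the 5 T and NK cell markers were 577 and 860, and of the 5 GMP markers 70657 and 73250. The part of these shifts in the GMP values of the members was not tested. Hoxa7 in GMP gave 0.48 ± 0.18 (0.0534) and passed, at 0.93, only without young GMP replicate 1, whose 13.2 CPM stood against 7.56 in the other young library.

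Young and aged CLP differed in markers of other cells. The 5 basophil and mast cell markers summed to 1664 to 1697 CPM in young and 7.64 to 11.6 in aged CLP, with Prss34 at 0 in the latter. The 5 B cell markers summed to 1947 to 1993 and 837 to 866, the 5 GMP markers to 1405 to 1443 and 236 to 337, the 5 macrophage markers to 123 to 138 and 2.15 to 3.00, and the 5 HSC markers to 40.8 to 41.2 and 208 to 211. Their part in the CLP values of the members was not tested.

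Whether the age difference itself differed between the fractions of a step was tested as an interaction. Called were 3 of 63 pairs, all more positive in the later fraction. Into CLP these were Hoxa3 and Hoxa9 (all genes, 17.7%) and into GMP Hoxb5 (19.7%). The steps from HSC to MPP1, from MPP1 to MPP2, MPP3 or MPP4, and from MPP2 to MEP had no member called with edgeR, beside 0.120%, 0.0353%, 0.198%, 0.240% and 16.1% of all genes; 0, 0, 0, 1 and 2 members differed there at an unadjusted p under 0.05, and DESeq2 called 0, 0, 0, 1 and 0. Hoxa3 was lower with age in MPP4 and higher in CLP, a difference of 2.21 ± 0.43 on the log2 scale (adjusted p = 6.31e-04). Its age difference in CLP alone was not called. For Hoxa9 the age difference was -0.96 in MPP4 and -0.02 in CLP, a difference of 0.94 ± 0.22 (0.00240). The Hoxa3 interaction was called without any one of its 8 libraries, and that of Hoxa9 was lost without young CLP replicate 1 (0.0112), aged MPP4 replicate 1 (0.0188) or aged CLP replicate 2 (0.0314). In the fit of the HSC and MPP libraries 2 more interactions passed, Hoxa5 from HSC to MPP1 (log2 -1.13, adjusted p = 0.00650) and Hoxa10 from MPP1 to MPP4 (-0.68, 0.00663).

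The other genes of the clusters were scarce. Of 29 other Hox genes 8 passed the filter, and none was called with age in any of the 8 fractions or on the mean over the MPPs, with edgeR or with DESeq2. At an unadjusted p under 0.05, 1 differed in each of MPP1, MPP3, CLP and the mean. Hoxb6 had 41 and 58 counts in young and 96 and 108 in aged HSC without overlap (log2 1.05 ± 0.63, adjusted p = 0.342). Hoxa6 had 26 and 26 against 35 and 36 there (0.44 ± 0.59, 0.739). Of 18 non-coding and antisense transcripts of the clusters 11 were in the table and 3 passed the filter, with Hoxaas3, above, the 1 call.

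Of 8 TALE cofactors tested, 4 were lower on the mean over the MPPs and none higher, among them Meis3 (log2 -1.06 ± 0.21), Meis1 (-0.39 ± 0.06) and Pbx2 (-0.37 ± 0.09). Of all genes, 17.7% were lower on it. Meis1, the known partner of Hoxa9, held 317 and 289 CPM in young and 204 and 213 in aged MPP4, without overlap (log2 -0.45 ± 0.12, adjusted p = 0.00573). Meis3 fell in MPP4 from 4.69 and 5.21 CPM to 1.11 and 1.59 (-1.78 ± 0.38, 0.00205). Pbx3 rose in HSC, from 19.1 and 19.5 CPM to 39.7 and 34.1 (0.97 ± 0.22, 0.00592), and gave 0.37 ± 0.12 (0.0114) on the mean over the MPPs. Single fractions held 2 lower calls in MPP3, MPP4 and MEP each, 1 higher in HSC and 2 higher in GMP, 14.1% of 64 pairs of gene and fraction beside 12.6% over all genes.

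Of 16 regulators of Hox transcription 13 were tested, and 6 were lower and 1 higher on the mean over the MPPs, where 17.7% and 18.9% of all genes were. Over single fractions 14.4% of their 104 pairs were called, beside 12.6% over all genes. Mllt3, a subunit of the super elongation complex known to sustain Hox expression in leukaemia as a fusion partner of Kmt2a, was lower in each MPP fraction: it held 121 and 117 CPM in young and 64.4 and 61.9 in aged MPP1, and 29.1 and 31.0 against 13.3 and 14.2 in MPP4. The log2 differences were -0.88, -0.80, -1.10 and -1.03 in MPP1 to MPP4, all called. Kmt2a, a histone methyltransferase that maintains Hox transcription, gave -0.45 ± 0.11 on the mean (adjusted p = 0.00148) and rose in GMP (1.11 ± 0.25, 0.00158), where 6 of 13 were called higher and 18.9% of all genes changed in either direction. Npm1, a nucleolar protein whose mutation in leukaemia is known to go with high Hox expression, was the higher one (0.44 ± 0.05, 1.49e-07).

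**Figure D5:**
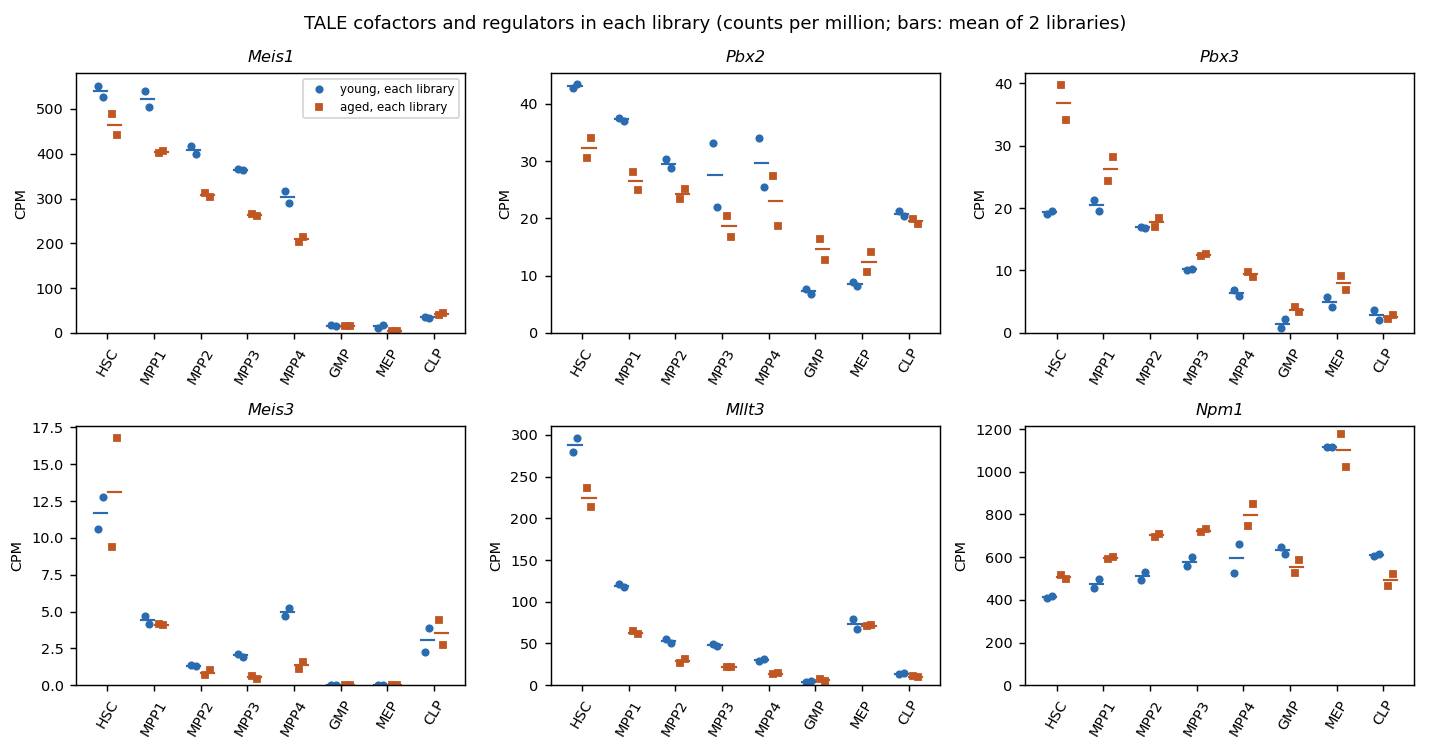
Level of 4 TALE cofactors and of the regulators Mllt3 and Npm1 (y axis, CPM, linear from 0, scaled per gene) in each fraction (x axis). Circles are young and squares aged libraries, and short lines are means of 2 libraries. In MPP1 to MPP4 the aged Meis1 and Mllt3 libraries lie below the young ones and the aged Npm1 libraries above them.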

How the data were processed

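The 10 genes, the lists of related genes and the comparisons were chosen with earlier results of these data known. Total RNA of sorted cells had been amplified (SMARTer Ultra Low Input), made into libraries and sequenced as single reads by the authors, who aligned them to mm10 with TopHat2 2.0.13 and Bowtie2 2.1.0 (per the labels) and counted them per gene with StringTie. The deposited table of raw counts, without molecular identifiers, was the only file used. A table of normalized values and 8 tables of the authors' own fold changes and p-values were left out.

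From the counts, edgeR 4.0.16 (R 4.3.3) with TMM normalization, filterByExpr over the 16 groups and 1 quasi-likelihood fit of all 32 libraries (16 residual degrees of freedom) tested 30 contrasts: the age difference per fraction and over the MPPs, 7 steps at each age and their interactions. A gene was called at an adjusted p under 0.01. CPM are counts per 1000000 counts of the library and do not include the TMM factors, whereas the fold changes do. The factors ran from 0.807 to 1.11 and were lowest in GMP (0.807 to 0.849). Fold changes into GMP are therefore less negative, or more positive, than the printed CPM and their sums alone would give. Means carry the SD of 2 libraries and fold changes a standard error. The limit for a count of 0 was 3 counts, and covers counting error only. In simulated counts for aged against young CLP, on 14154 genes, the fit called 95% of 2-fold and 100% of 4-fold changes. The changed genes were above 5 CPM in CLP, and every gene was given the common dispersion (0.0127). Among the members only Hoxa7 and Hoxa9 exceeded 5 CPM in CLP, so the simulation does not cover scarcer members or a wider spread. Of the genes, 27 have names turned into dates (0.188% of counts) and were not named. All 10 members are named, and others from the fixed lists, if among the 5 most abundant or called, and as the 5 genes most like the mean pattern of each cluster. Exon lengths are from GENCODE M21 transcripts linked to RefSeq. Alternatives were DESeq2 1.42.0, its size factors, no filter on low counts, other thresholds, fits of the libraries compared or of the HSC and MPP libraries, a replicate block, and leaving out each library. Same-numbered young and aged libraries did not deviate together in every fraction (correlation from -0.089 to 0.120), so the numbers were not taken as pairs. Whether same-numbered fractions of 1 age share a pool of marrow was not checked, and the replicate block was a single term for both ages. The tests of steps and interactions treat the fractions of an age as independent, so their p-values too can overstate the replication. Some genes of the fixed lists are counted in their list and not reported here by name.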

Additional observations from a re-analysis of the deposited data

Results flagged for a closer look

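For 3 members the age difference differed between the fractions of a step by the interaction test of edgeR. They made up 4.76% of 63 pairs, beside 7.72% over all genes and steps. Of all genes, 17.7% were called for CLP minus MPP4 and 19.7% for GMP minus MPP3. Hoxa3 gave 2.21 on the log2 scale (CLP minus MPP4, adjusted p = 6.31e-04), being lower with age in MPP4 and higher, though not called, in CLP. Over 5 other settings the adjusted p of this interaction ran from 2.73e-06 to 0.00519, and it was called without any one of its 8 libraries. Hoxa9 gave 0.94 for the same step (0.00240), with an age difference of -0.96 in MPP4 and of -0.02 in CLP, and was not called in a fit of the 8 libraries compared (0.0230). Hoxb5 gave 6.00 for GMP minus MPP3 (0.00294), a fitted value that rests on 0 and 0 counts in young and 7 and 5 in aged GMP and is no estimate of size. It was not called in a fit of the 8 libraries compared (0.0195). The marker sums that moved with age in CLP, MPP4, GMP and MPP3 are given with the age differences, and their part in these 3 values was not tested.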

How the results depend on the processing

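The precision is that of 2 libraries per group, and members with a few counts per library (Hoxb3, Hoxb4, Hoxb8) could show only large differences. No direction of a called difference was reversed by an alternative. Age differences were 1 higher and 2 lower; a fit of the libraries compared gave 0 and 9, DESeq2 4 and 8, an adjusted p under 0.05 gave 3 and 9, no filter on low counts gave 4 lower, and a minimum log2 change of 1 gave 1 lower. On the mean over MPP1 to MPP4, 0 were higher and 3 lower; a fit of the libraries compared, DESeq2 and an adjusted p under 0.05 each gave 1 higher, the last also 5 lower, and a minimum log2 change of 1 gave 1 lower. Rises at a step numbered 1 at each age; they were 2 young and 3 aged at an adjusted p under 0.05 and 0 at both ages with a minimum log2 change of 1. Interactions were 3 higher and 0 lower; a fit of the libraries compared gave 1 higher, an adjusted p under 0.05 gave 5 higher and DESeq2 1 lower. In the fit of HSC and MPP libraries alone, chosen after seeing the data, age differences in those fractions were 2 higher and 11 lower in place of 0 and 2, and steps 3 higher and 32 lower in place of 1 and 12. Leaving out each library in turn gave 0 to 4 higher and 1 to 6 lower age differences, 0 to 1 and 3 to 4 on the mean over the MPPs, 1 to 2 and 23 to 30 young steps, 0 to 2 and 22 to 30 aged steps, and 2 to 4 and 0 interactions. A lone library left in a group is assumed to vary like the others. With the replicate number as a block, age differences stayed at 1 higher and 2 lower, the mean at 0 and 3, young steps at 1 and 25 and interactions at 3 and 0, while aged steps were 1 and 25 in place of 1 and 26. The cause of these shifts was not tested.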
